A study of Mus musculus with 3 samples.

Results

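The genes that encode the oxidative phosphorylation machinery were followed complex by complex on 3 arrays of CLDE cells, a line of mouse dental epithelium. Members were all non-control probes whose deposited gene name carries the prefix of a complex I to V subunit (Nduf, Sdh, Uqcr, Cox4 to Cox8, Atp5), with Cyc1 and the electron carrier Cycs. This gave 154 probes for 98 of the 37074 gene names on the arrays. By a name rule, 83 genes were subunits: 38 of complex I, 4 of complex II, 10 of complex III with cytochrome c, 16 of complex IV and 15 of complex V. The remaining 15 names were assembly factors and other proteins that share a prefix, and are kept apart below. Cox5b was not analysed here.

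Cells were harvested 72 h after transfection with siRNA against keratin 15 (siKrt15), with non-targeting siRNA (siNeg) or after mock transfection, whose mix the labels do not describe. Each group had 1 array, so no difference below has a replicate check and no p-value was computed. For the siKrt15 and siNeg arrays the titles and the treatment fields contradict each other. Groups follow the titles, and the siKrt15 array is the array titled so. Krt15 had a processed signal of 267.2 on the siKrt15 array, 1647.4 on the siNeg array and 2638.3 on the mock array, which goes with the titles.

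The error given after ± is the SD of the scanner's error model, and it was 0.204 on the log2 scale for most bright probes, so it is not a spread measured for each gene. The basal epithelial markers Krt5 and Krt14 were bright on all 3 arrays, with signals of at least 79723.4. Of the 7 epithelial markers, 4 were lower and 3 higher after scaling in siKrt15 than in each control. Trp63 had log2 differences of −0.32 from siNeg and −0.56 from mock, and Epcam of 0.53 and 0.60. Taking the brightest probe of each, the 9 mesenchymal markers summed to a signal of 181.4 on the siKrt15 array, 228.5 on the siNeg array and 257.8 on the mock array. Of these, 5 were above background on all 3 arrays, and Pdgfrb and Lum were on none. The markers did not move together: Dcn gave 85.8 in siKrt15, 150.5 in siNeg and 174.5 in mock, while Col1a1 gave 53.0, 22.8 and 25.7. The 3 endothelial markers summed to 23.9, 19.1 and 29.8 on those arrays, with Cdh5 and Kdr not above background, and the 4 blood and immune markers to 2812, 2706 and 2933. The part of other cell types in the values below was not tested. Unless stated otherwise, a value is a difference in normalized log2 signal, that is, log2 processed signal minus the array's 75th percentile. A gene's value is the mean over its probes above background, and it is relative to that array's other RNAs. In a bulk RNA sample, fewer expressing cells and less RNA per cell cannot be told apart.

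Complexes I and II pass electrons from NADH and succinate to ubiquinone, complex III passes them to cytochrome c, and complex IV passes them to oxygen. Complexes I, III and IV pump protons across the inner mitochondrial membrane, and complex V, the ATP synthase, uses the gradient to make ATP. The nuclear genes for these subunits are known to be driven in part by NRF1, by the ETS factor GABP and by YY1, while a small set of core subunits is encoded by mitochondrial DNA. Several complex IV subunits also exist as paralogs that are used mainly in muscle, lung or testis.

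RefSeq promoters (GRCm38.p6), from 250 bases before to 50 bases after the transcription start, were found by symbol or synonym for 67 of the 83 subunit genes. The NRF1 core, which has 1 free base and whose copies stand in capitals below, was read on both strands, as were the others. It occurred in promoters of 17 of the 67 genes (25.4%), against 7.2% of protein-coding genes with a promoter in the table. The ETS core CCGGAAG occurred in 16 (23.9%, against 12.9%) and the YY1 core AANATGGCG in 10 (14.9%, against 3.6%). At least 1 of these motifs was present for 37 of the 67 subunit genes (55.2%), against 20.9% of protein-coding genes. These are letter matches and not shown binding sites. Stretches upstream of the start are given for 7 genes, to show how the motifs lie in promoters of different complexes. Capitals mark the motifs on either strand, none of which overlapped another, and the strand of transcription is read 5′ to 3′.
Sdha, complex II, chr13:74350241-74350358, minus strand: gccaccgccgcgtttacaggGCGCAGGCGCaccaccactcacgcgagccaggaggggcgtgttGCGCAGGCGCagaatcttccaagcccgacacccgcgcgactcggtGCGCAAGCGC
Sdhd, complex II, chr9:50603869-50603948, minus strand: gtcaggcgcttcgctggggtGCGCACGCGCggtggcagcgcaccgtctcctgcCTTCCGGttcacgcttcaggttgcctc
Ndufa5, complex I, chr6:24527687-24527736, minus strand: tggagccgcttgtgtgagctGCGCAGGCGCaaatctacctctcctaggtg
Uqcr11, complex III, chr10:80406861-80406907, minus strand: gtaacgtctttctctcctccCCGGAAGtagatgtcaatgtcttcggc
Cox6a1, complex IV, chr5:115348959-115349140, minus strand: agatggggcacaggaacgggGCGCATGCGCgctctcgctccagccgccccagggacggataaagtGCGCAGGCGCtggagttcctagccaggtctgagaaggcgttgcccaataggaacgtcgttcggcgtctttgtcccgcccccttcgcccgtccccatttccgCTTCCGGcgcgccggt
Cox6b1, complex IV, chr7:30626116-30626162, minus strand: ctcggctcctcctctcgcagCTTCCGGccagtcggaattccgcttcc
Atp5j, complex V, chr16:84835011-84835084, minus strand: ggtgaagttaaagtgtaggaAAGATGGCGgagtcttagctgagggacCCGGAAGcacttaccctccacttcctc
Sdha carried 3 copies of the NRF1 core in this stretch, Cox6a1 carried 2 with an ETS core, and Atp5j carried a YY1 and an ETS core. Ndufa5 has a pair of start sites in the table and the same NRF1 core lies upstream of both. By complex, the NRF1 core was found for 7 of 33 complex I genes, 2 of 3 complex II genes, 1 of 6 complex III genes, 1 of 11 complex IV genes and 6 of 14 complex V genes. The YY1 core was found for 7 complex I and 3 complex V genes and for 0 genes of the other complexes. The median siKrt15 minus siNeg difference was −0.07 for the 17 measured genes with the NRF1 core and −0.11 for the 49 without it. For the ETS core the medians were −0.10 with it (16 genes) and −0.10 without it (50 genes). For the YY1 core they were −0.08 with it (10 genes) and −0.11 without it (56 genes).

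The subunit genes as a group stayed close to the other genes on the arrays. In siKrt15 minus siNeg the median of the 81 measured subunit genes was −0.11, against −0.13 for all 23854 genes measured, and 71 of the 81 were below 0, where 65.7% of all genes and 74.8% of the brightest 10% of genes were. In siKrt15 minus mock the subunit median was −0.08, against −0.12 for all genes, with 57 of 81 below 0, where 63.6% of all genes and 68% of the brightest 10% were. In siNeg minus mock the median was 0.06, against 0.02 for all genes, and 56 of 81 were above 0, where 53.9% of all genes were. Scaling on spike-in probes, quantile normalization and removal of the signal trend each put both medians of siKrt15 above 0. The siKrt15 array is shared by the first 2 comparisons and mock by the last 2, so these are not separate observations.

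In siKrt15, 54 of the 81 subunit genes lay below both controls and 7 lay above both. Among all 23529 genes measured on the 3 arrays 56.5% lay below both controls and 27.4% above both, and among the brightest 10% of genes 65.4% and 22.5% did. The subunit genes are mostly bright, with 59 of the 81 in the brightest 10% in siKrt15 minus siNeg. That class had a median of −0.18 against siNeg and −0.13 against mock. In siKrt15 minus siNeg the SD over genes was 0.18 for the 81 subunit genes and 0.13 for the 75 that are not tissue isoforms, against 0.28 for the brightest 10% and 0.42 for all genes. Against mock these SDs were 0.21, 0.16, 0.31 and 0.44.

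At a fold of 1.5, few subunit genes passed. Against siNeg, 3 of 81 were lower in siKrt15 (Cox7b2, Cox6a2 and Ndufa4l2), where 10.9% of all genes were, and 0 were higher, where 3.94% of all genes were. Against mock, 2 were lower (Cox7b2 and Cox6a2), where 11.1% of all genes were, and 0 were higher, where 4.71% were. Among the brightest 10% of genes, 5.28% were lower and 0.88% higher than siNeg, and 7.03% were lower and 1.09% higher than mock. In siNeg minus mock 0 subunit genes passed in either direction, where 2.71% of all genes were higher and 1.62% lower. At 2-fold 0 subunit genes passed in either comparison of siKrt15, where 2.25% of all genes were lower and 1.35% higher than siNeg, and 2.08% lower and 1.68% higher than mock. All 3 genes that passed are minor or tissue-restricted paralogs, and 0 of the 75 other subunit genes reached 1.5-fold in either comparison with siKrt15. Setting each difference against its own error SD, 55 of the 81 subunit genes were within 1 SD of 0 in siKrt15 minus siNeg, 58 in siKrt15 minus mock and 74 in siNeg minus mock. Differences over 2 SD were seen for Cox6a2, Cox6b1, Cox7b2 and Ndufa4l2 against siNeg, all lower, and against mock for Cox6a2 and Cox7b2, lower, and Ndufa4, higher. Counts by error SD were not made over all genes, so whether these are few or many for the arrays is not known.

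**Figure D1:**
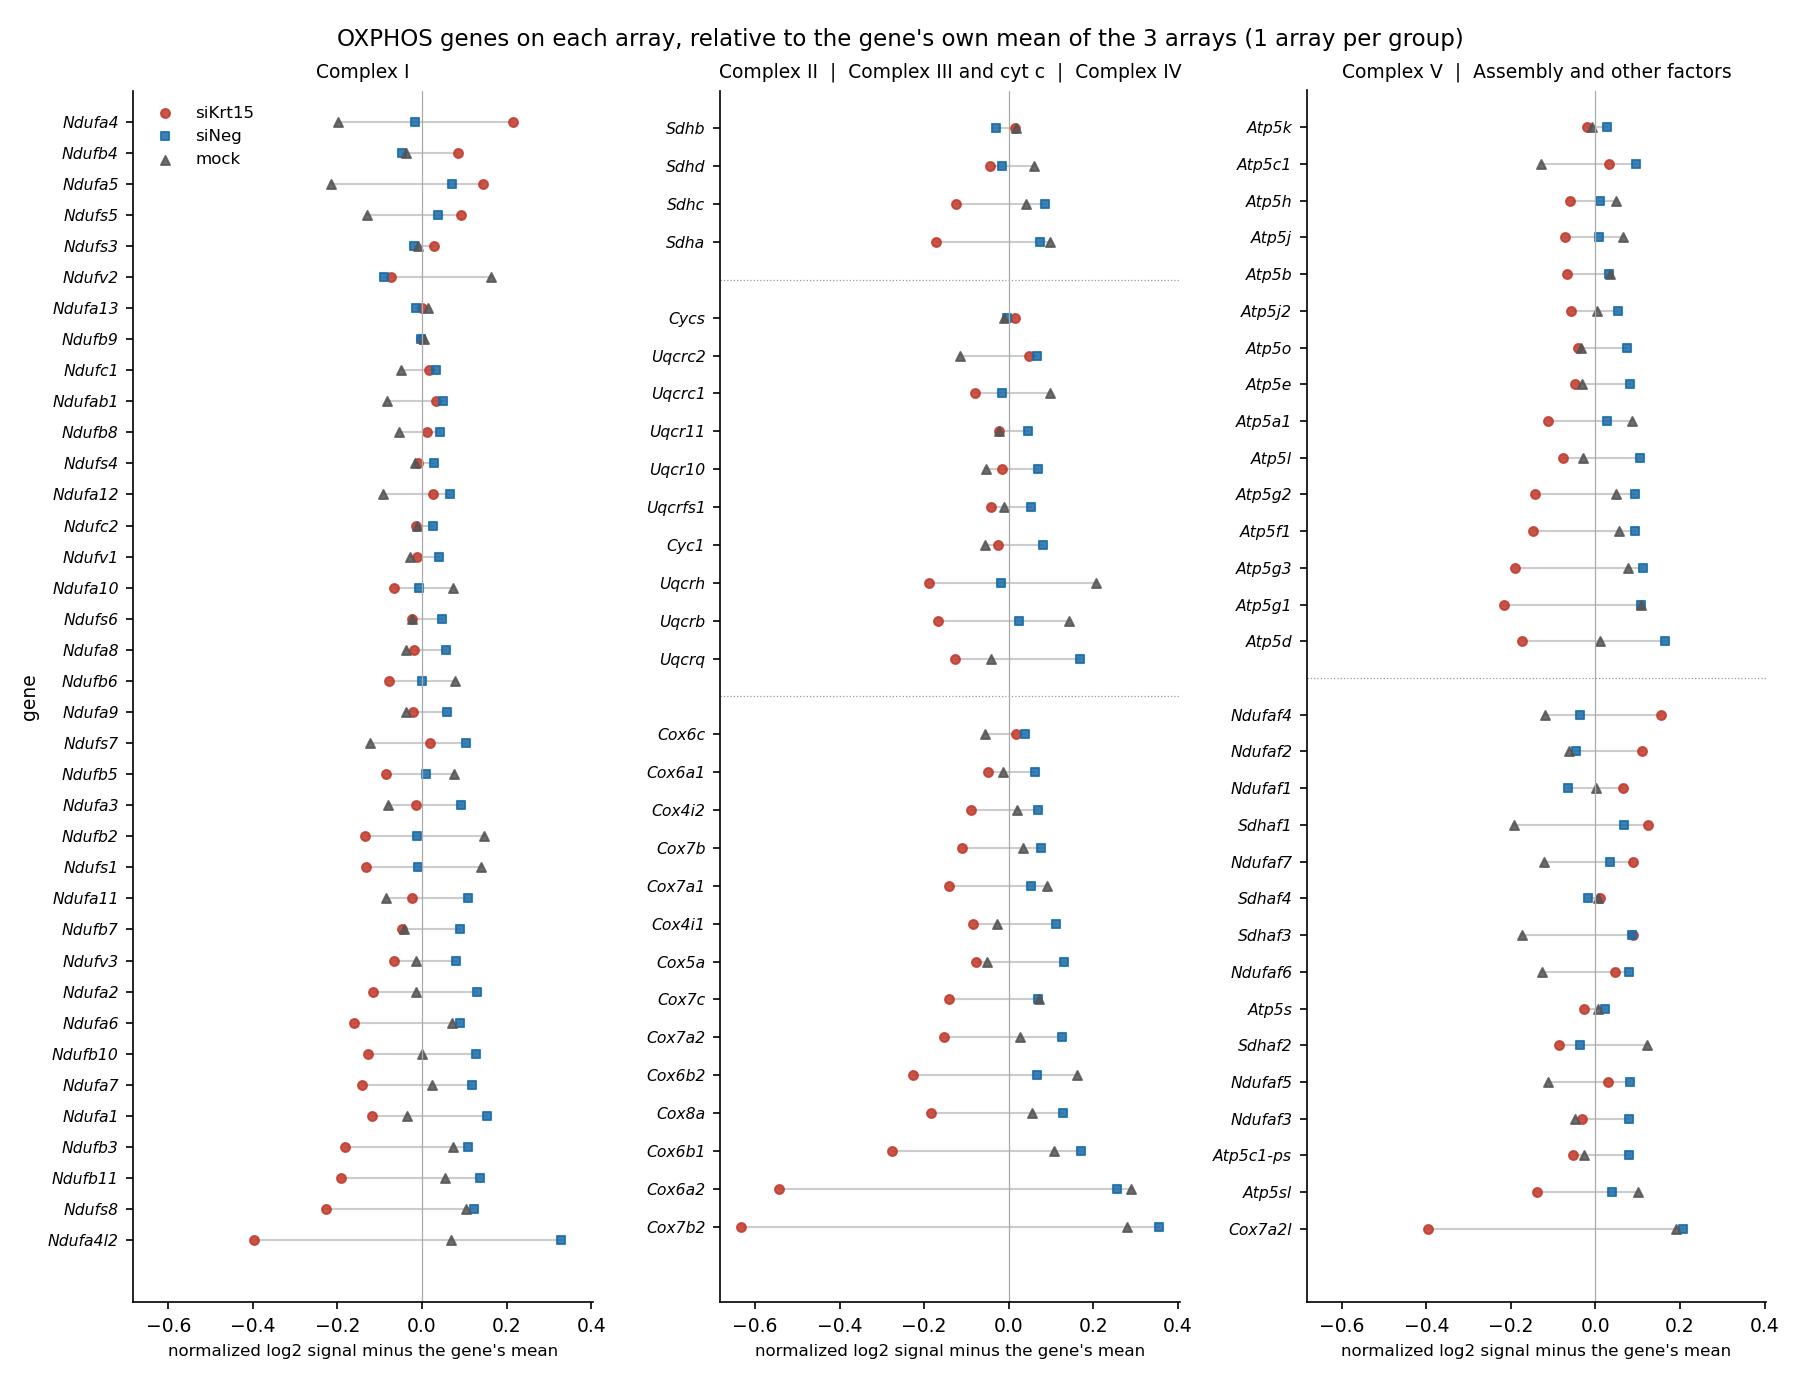
Normalized log2 signal of the measured genes (1 complex I gene left out) on the siKrt15 array (circles), the siNeg array (squares) and the mock array (triangles), drawn relative to the gene's own mean of the 3 arrays and sorted within each complex by siKrt15 minus siNeg. Cox7b2, Cox6a2 and Cox7a2l show the siKrt15 array far below both controls, with log2 differences from siNeg of −0.99, −0.80 and −0.60, while Ndufa4, 0.23 from siNeg, has the siKrt15 array highest.

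The siKrt15 array was the brighter one in its upper signals before scaling, and the direction of the group median depends on how it is scaled. Its median processed signal was 19.624, against 18.605 for siNeg and 19.651 for mock, so it was not brighter than mock throughout. Unscaled, 100 of 123 subunit probes above background had a higher processed signal on siKrt15 than on siNeg (median log2 difference 0.15). Against mock, 86 of 123 had a higher one (median 0.10). These counts are not given for all probes, so they do not show whether subunit probes differ from the rest of the array. The percentile used for scaling stood at a processed signal of 216.0 for siKrt15, 180.4 for siNeg and 191.1 for mock. Scaled on the spike-in probes, the subunit median was 0.15 in siKrt15 minus siNeg, against 0.13 for all genes there. Distances between complexes do not depend on a constant scaling factor.

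Complex IV had the lowest median of the 5 complexes in siKrt15, at −0.21 against siNeg and −0.20 against mock. The brightest 10% of all genes had medians of −0.18 and −0.13. All 14 measured complex IV genes were below 0 against siNeg, where 65.7% of all genes and 74.8% of the brightest 10% were. Of these 14, 13 were below both controls, where 56.5% of all genes and 65.4% of the brightest 10% were. The complex IV median against siNeg was, however, 0.05 when scaled on spike-in probes. The complex IV median minus the complex I median was −0.13 against siNeg (−0.20 to −0.13 over 12 alternative settings) and −0.19 against mock (−0.23 to −0.15). Complex IV was the lowest complex in all 12 alternatives against siNeg and in 10 of 12 against mock. In quantile normalization and after removal of the signal trend, complex II was lower there. Between the controls, siNeg minus mock, the same distance was −0.015. The size of these distances over replicate cultures was not tested.

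The other medians against siNeg were −0.08 for complex I, −0.12 for complex II, −0.09 for complex III with cytochrome c and −0.13 for complex V. Against mock they were −0.0045 for complex I, −0.14 for complex II, −0.02 for complex III and −0.11 for complex V. Complex V had 14 of 15 genes below both controls and complex II 3 of 4. Complex III had 6 of 10 and complex I had 18 of 38, with 6 complex I genes above both. Of all genes 56.5% lay below both controls and 27.4% above both, and of the brightest 10% 65.4% and 22.5% did. Against siNeg, 26 of 38 complex I, 2 of 4 complex II and 7 of 10 complex III genes lay above the all-gene median. For complex IV 2 of 14 did, and for complex V 7 of 15. Against mock, counts were 25 of 38, 2 of 4, 7 of 10, 5 of 14 and 8 of 15 for complexes I to V. Complex IV thus stood less apart by this count against mock.

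**Figure D2:**
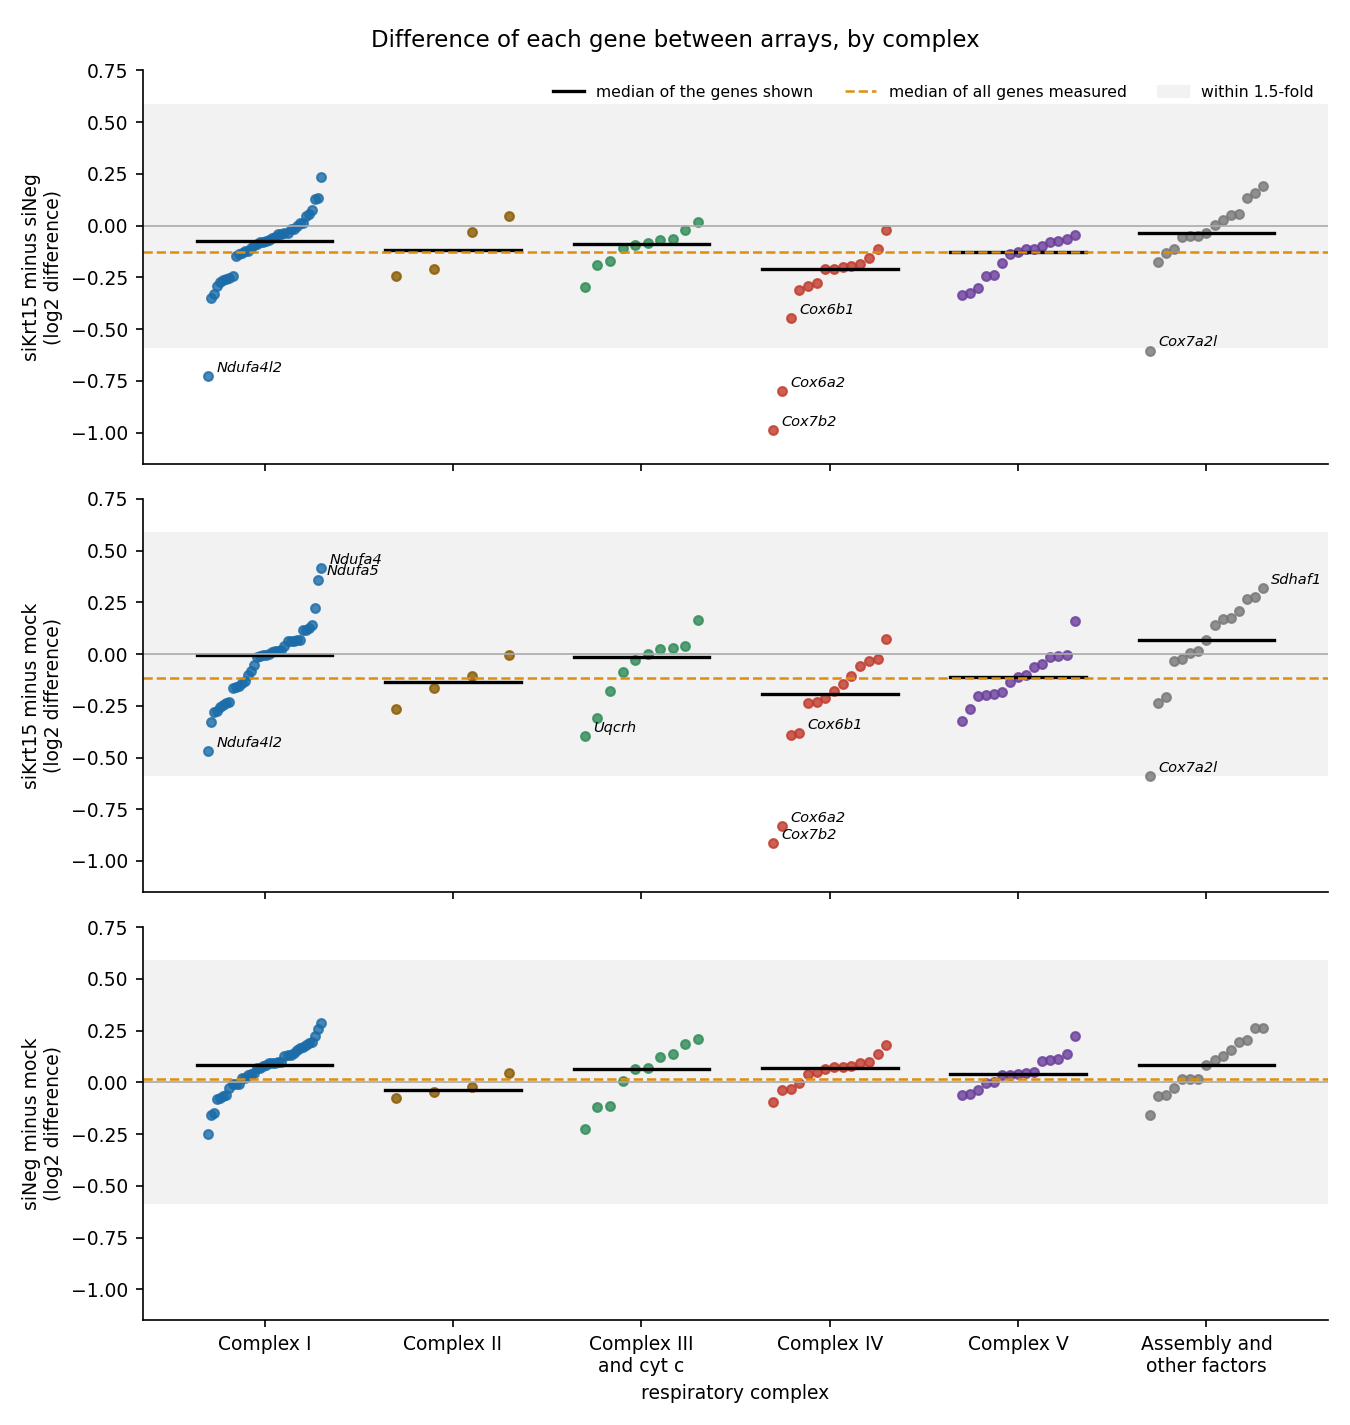
Log2 difference of each gene (points) by complex, for siKrt15 minus siNeg (top), siKrt15 minus mock (middle) and siNeg minus mock (bottom), with the median of the genes shown (black bars), the median of all genes measured (dashed line) and the range within 1.5-fold (grey band). Complex IV sits lowest in both comparisons of siKrt15, with medians of −0.21 and −0.20, and in siNeg minus mock the complexes lie between −0.04 and 0.08.

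In complex I, the gene for the largest core iron-sulfur subunit, Ndufs1, gave 2814.9 on the siKrt15 array, 2209.7 on the siNeg array and 2504.7 on the mock array with its bright probe. That probe differed by 0.09 ± 0.20 from siNeg. A second Ndufs1 probe, under an Ensembl transcript and dim at 14.5, 15.3 and 18.6 on those arrays, differed by −0.34. The gene mean of −0.12 therefore rests on the dim probe for its sign.

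Ndufs8, which holds a pair of the iron-sulfur clusters near the quinone site, was the lowest core gene of complex I. It gave 6179.2 in siKrt15, 6573.1 in siNeg and 6868.6 in mock, a difference of −0.35 ± 0.20 from siNeg and −0.33 from mock. Ndufs3 was at 0.05 against siNeg, a sign that rests on its dim probe (11.4 in siKrt15 and 8.7 in siNeg), at 0.13. Its bright probe (5315.9 and 4535.0) was at −0.03. Ndufv1, the NADH-binding subunit, was at −0.06 against siNeg. Ndufs7 was at −0.09 against siNeg and 0.14 against mock, on either side of 0. Ndufv2 was at 0.015 against siNeg. Against mock its probes parted, with −0.62 for a dim one (13.5 in siKrt15, 11.7 in siNeg and 18.3 in mock) and 0.145 for a bright one (7800.3, 6141.4 and 6238.0).

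Among the accessory subunits of complex I the highest value was that of Ndufa4, which was named for complex I and later assigned to complex IV in mammalian cells. Its probe gave 5934.4 in siKrt15, 4213.6 in siNeg and 3936.0 in mock. It lay 0.23 ± 0.20 above siNeg and 0.42 ± 0.20 above mock, and siNeg was itself 0.18 above mock. Ndufa4 stayed above 0 in both comparisons of siKrt15 in all 11 alternatives. Ndufa5, an accessory subunit of the matrix arm, was 0.07 from siNeg and 0.36 from mock with 2 probes, and here siNeg lay 0.29 above mock. Most of the Ndufa5 difference from mock was thus also present between the controls.

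Ndufb4 was at 0.13 and Ndufs5 at 0.06 against siNeg. Their probes also match Ndufb4b and a Ndufs5 pseudogene, so both values are uncertain. At the low end of complex I were Ndufb11 at −0.33, Ndufb3 at −0.29 and Ndufa1 at −0.27 against siNeg, subunits of the membrane arm. Ndufb11 had signals of 16372.2 in siKrt15, 17162.2 in siNeg and 17149.1 in mock. Lowest in the complex was Ndufa4l2, the hypoxia-inducible paralog of Ndufa4, at −0.73 against siNeg and −0.47 against mock. Its 2 probes were dim, with 15.9 and 9.3 in siKrt15, 20.1 and 14.0 in siNeg and 22.5 and 9.8 in mock. Ndufa4 and Ndufa4l2 therefore lay on opposite sides of 0.

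In complex II, Sdha, the flavoprotein that oxidizes succinate, had 4 probes, all below 0 against siNeg, at −0.40 to −0.05 with a mean of −0.24. Its brightest probe gave 4150.8 in siKrt15, 4569.9 in siNeg and 4156.9 in mock, so siKrt15 and mock were nearly equal before scaling. Sdhb, the iron-sulfur subunit, was at 0.04 against siNeg and at −0.003 against mock. Sdhc and Sdhd, the membrane anchors, were at −0.21 and −0.03 against siNeg. Sdhb and Sdhd were within 1 error SD of 0 against both controls.

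In complex III, the cytochrome c1 gene Cyc1 was at −0.11 against siNeg and 0.03 against mock, with its 2 probes at −0.10 and −0.11 in the first. The Rieske iron-sulfur subunit gene Uqcrfs1 was at −0.09 and −0.03, and the core genes Uqcrc1 and Uqcrc2 at −0.06 and −0.02 against siNeg. Uqcrq, Uqcrb and Uqcrh, small accessory subunits, had the lowest values. Uqcrb was at −0.19 and −0.31 with 3 probes. Uqcrq gave 43838.9 in siKrt15, 44907.5 in siNeg and 41123.6 in mock (−0.30 from siNeg and −0.09 from mock). Uqcrh gave 4093.5, 3845.4 and 4760.3 on those arrays (−0.17 and −0.395). The controls themselves lay 0.21 apart for Uqcrq and −0.225 apart for Uqcrh (siNeg minus mock).

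Cytochrome c, the carrier between complexes III and IV, stayed close to 0. The brighter Cycs probe had 14736.5 in siKrt15, 11955.1 in siNeg and 12560.8 in mock, and the other had 1464.5, 1226.0 and 1297.3. After scaling the gene lay at 0.02 against siNeg and 0.03 against mock, and siNeg minus mock was 0.01. The value farthest from 0 of either probe was 0.053. Scaled on spike-in probes, the difference from siNeg was 0.28, so this closeness holds for the scaling used.

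In complex IV all 9 ubiquitous subunits were below siNeg, but some of them, Cox4i1, Cox5a and Cox6a1 among them, were above it in 3 of 11 alternatives. Cox6b1, the subunit on the cytochrome c side, was the lowest of them. It gave 1266.0 in siKrt15, 1440.5 in siNeg and 1459.9 in mock, differences of −0.45 ± 0.20 and −0.38 ± 0.20. Cox8a was at −0.31, Cox7a2 at −0.28, Cox5a at −0.21, Cox4i1 at −0.20 and Cox7b at −0.18 against siNeg, and all of these were also below 0 against mock. Cox6a1 (−0.11 and −0.03) and Cox6c (−0.02 and 0.07) were the closest to 0. Cox7c, at −0.21 against both controls, shares its probes with Gm12338. Without the paralogs of restricted expression, the 9 remaining complex IV genes had medians of −0.21 against siNeg and −0.14 against mock. Of these genes 9 of 9 and 8 of 9 were below 0, where 65.7% and 63.6% of all genes were. With Ndufa4 and Ndufa4l2 counted in complex IV, a choice made after seeing the values, the medians were −0.21 and −0.20.

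Among the paralogs of restricted expression were Cox7b2, Cox6a2 and Ndufa4l2, the 3 lowest subunit genes against siNeg. Cox6a2, the heart and muscle form of subunit VIa, gave 343.4 in siKrt15, 498.9 in siNeg and 541.0 in mock, differences of −0.80 ± 0.20 and −0.83 ± 0.20, with siNeg and mock 0.03 apart. Its ubiquitous counterpart Cox6a1 gave 66488.5, 59948.2 and 60206.3 on those arrays. It was within 1 error SD of 0. Cox7b2, a testis form, gave 4.9 in siKrt15, 8.1 in siNeg and 8.2 in mock, at −0.99 ± 0.39 and −0.91 ± 0.39, close to background. Cox6b2 was at −0.29 and −0.39, Cox7a1 at −0.19 and −0.23, and Cox4i2 at −0.16 and −0.11. All 6 such paralogs measured, Ndufa4l2 included, were below both controls, where 56.5% of all genes were. Their medians were −0.51 and −0.43. Cox4i2 and Cox7a1 were above siNeg when scaled on spike-in probes.

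These paralogs were mostly dim, and dim probes were lower in siKrt15 generally. The 18 subunit probes under a signal of 100 on at least 1 array had medians of −0.23 against siNeg and −0.39 against mock, where the 105 brighter probes had −0.10 and −0.04. The dimmest 10% of all genes had medians of −0.37 and −0.27. Cox6a2 is not among the dim probes. Cox8b was above background on the siNeg array only, with 1.1 in siKrt15, 6.6 in siNeg and 2.1 in mock. Its siNeg value was 1.76-fold above the lowest normalized signal called above background on the siKrt15 array. It was 1.54-fold above the lowest such signal on the mock array, and for siKrt15 against mock no such fold can be given. These folds are not firm lower limits, since an Atp5d probe not called above background on the siKrt15 array lay above the lowest called signal there (−5.442 against −5.584). Cox8c was not above background on any array. The part of brightness in the paralogs' values was not tested further.

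**Figure D3:**
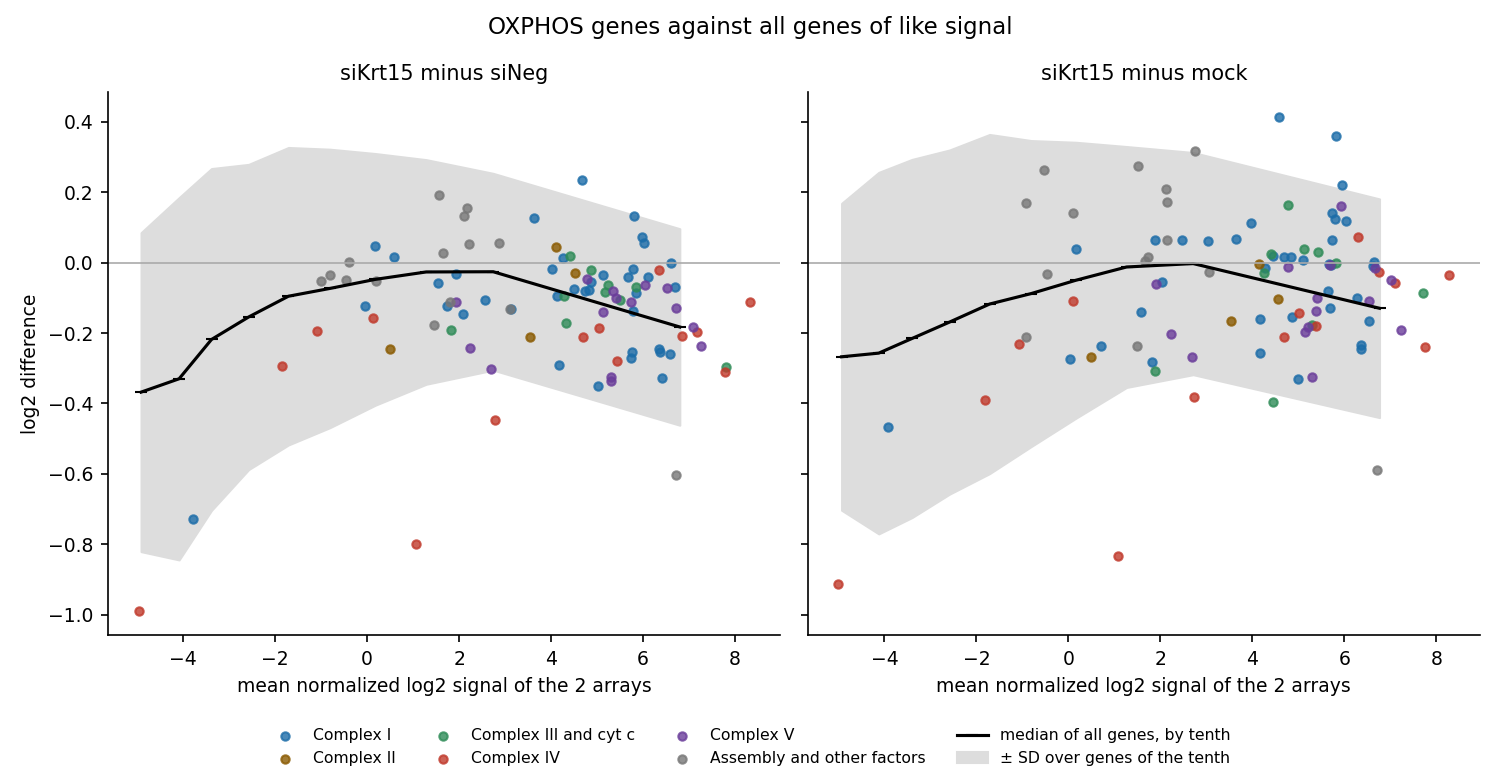
Log2 difference of each gene, siKrt15 minus siNeg (left) and siKrt15 minus mock (right), against the mean normalized log2 signal of the 2 arrays. The black line joins the medians of all genes in 10 classes of signal, drawn at the middle of each class, the grey band is ± SD over the genes of the class, and Cox6a2 (−0.80 and −0.83) lies below it.

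In complex V, the ATP synthase, all 15 genes were below siNeg and 14 were below mock, where 65.7% and 63.6% of all genes were. The complex V median was close to that of all genes, at −0.129 and −0.126 against siNeg and −0.110 and −0.116 against mock. Of the 15 genes, 7 lay above the all-gene median against siNeg and 8 against mock. The counts below 0 therefore do not set complex V apart from the other genes. The catalytic head genes Atp5a1 and Atp5b were at −0.14 and −0.10 against siNeg, and the central stalk gene Atp5c1 was at −0.06 against siNeg and 0.16 against mock. Atp5o, of the peripheral stalk, was at −0.11 and Atp5k, a small membrane subunit, at −0.05 against siNeg. With spike-in scaling, quantile normalization or the signal trend removed, the complex V median was above 0 against both controls. Atp5d, also of the central stalk, gave 7567.0 in siKrt15, 7974.9 in siNeg and 7601.1 in mock, at −0.34 ± 0.20 and −0.18 ± 0.20.

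The 3 genes for the same c-ring protein, Atp5g1, Atp5g2 and Atp5g3, were below siNeg, at −0.32, −0.24 and −0.30 against siNeg and −0.32, −0.19 and −0.27 against mock, but Atp5g2 was above siNeg in 3 of 11 alternatives. Atp5g1 had 3 probes, between −0.37 and −0.28 against siNeg. The Atp5g2 probe was printed on 10 spots, so its value has a measured technical error: it averaged a normalized log2 signal of 7.14 ± 0.042 for siKrt15, 7.38 ± 0.067 for siNeg and 7.34 ± 0.065 for mock (SD over 10 spots of 1 array). The gap between siKrt15 and the controls was larger than the spread of these spots. That spread leaves out the scaling of the arrays and differences between cultures. Before scaling the Atp5g2 signals were nearly equal, at 30566.4 in siKrt15, 30053.8 in siNeg and 30865.2 in mock, so this gap depends on the scaling used. For Atp5g3 the probes disagreed, at −0.52 for the bright one (11987.8 in siKrt15, 14342.2 in siNeg and 13550.2 in mock) and −0.08 for the dim one (133.8, 118.3 and 134.2).

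The 15 assembly and other factors had medians of −0.03 against siNeg and 0.07 against mock, with 7 above both controls and 5 below both. Of all genes 27.4% lay above both and 56.5% below both. At 1.5-fold, 1 of 15 was lower and 0 were higher in each comparison of siKrt15, near the shares of all genes (10.9% lower and 3.94% higher than siNeg, 11.1% lower and 4.71% higher than mock). That gene was Cox7a2l, also known as SCAF1, which joins complexes III and IV in supercomplexes. Its probe gave 18500.3 in siKrt15, 23454.3 in siNeg and 24596.5 in mock, at −0.60 ± 0.20 and −0.59 ± 0.20, with the controls 0.015 apart. It was below 0 in all 11 alternatives, at −0.65 to −0.34 against siNeg, and in some of them it was within 1.5-fold. Ndufaf4, Ndufaf2 and Ndufaf1, which help build complex I, were at 0.19, 0.16 and 0.13 against siNeg and 0.28, 0.17 and 0.07 against mock. Atp5sl was at −0.18 and −0.24. Sdhaf1, a factor for the iron-sulfur clusters of complex II, was 0.06 above siNeg and 0.32 above mock.

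Probes are shown for Cox6a2, Cox7b2 and Cox7a2l, which passed 1.5-fold against both controls, for Ndufa4, the highest subunit gene, for Cox6a1, the counterpart of Cox6a2, and for Atp5g3, whose 2 probes disagree. Coordinates are on mm9, and the first 30 of the 60 bases are given to identify each probe.
Cox6a2, chr7:135349160-135349219: agcaatcttcaaattggccttctgcacacc
Cox6a1, chr5:115795726-115795785: ggaccacgaaaaccctttggatgctaagct
Cox7b2, chr5:71834167-71834226: cccaagagtggaagaagaagtaaatatctt
Cox7a2l, chr17:83901272-83901331: cctttaataatgctgtggctttacgttatg
Ndufa4, chr6:11850423-11850482: ccgcacaattttccacttaagcaggaaata
Atp5g3, bright probe, chr2:73746519-73746578: ccgaagactgtagtactggtgtcatggaaa
Atp5g3, dim probe, chr2:73746848-73746907: caaaagcaaagtggtataggagatagcacc
All of these lie on the minus strand of the genome. The Cox6a2, Cox6a1, Cox7b2, Cox7a2l and Ndufa4 values each rest on 1 probe.

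How far probes of a gene can differ was seen in the 30 member genes with at least 2 probes of signal 100 or more. The median gap between their lowest and highest probe was 0.09 in siKrt15 minus siNeg and 0.05 in siKrt15 minus mock, and the largest was 0.44, for Atp5g3, in the first. In siKrt15 minus siNeg, 20 of the 30 had all such probes below 0, 4 had all above 0, and 6 had probes on both sides.

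The subunits encoded by mitochondrial DNA were measured for 11 of 13 genes, 10 of whose probes the files place on mitochondrial DNA. Their median was −0.09 against siNeg and −0.23 against mock, with 9 and 10 of 11 below 0. Of all genes 65.7% and 63.6% were below 0 in these comparisons, and of the brightest 10% of genes 74.8% and 68%. The complex IV core gene COX1 gave 45238.6 in siKrt15, 56191.3 in siNeg and 58392.4 in mock, at −0.57 ± 0.20 and −0.545 ± 0.20. COX2 was at −0.31 and −0.34, CYTB of complex III at −0.30 and −0.31, and ND6, the one gene here on the other strand, at −0.60 and −0.59. At 1.5-fold, 1 of 11 was lower, ND6, and 0 were higher in each comparison of siKrt15, where 10.9% and 11.1% of all genes were lower. The other complex I genes lay between −0.17 and 0.20 against siNeg, with ND3 highest. ND3 is the gene whose probe the files do not place on mitochondrial DNA.

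The counts at 1.5-fold in this paragraph stand against 10.9% of all genes lower and 3.94% higher than siNeg, and 11.1% lower and 4.71% higher than mock. Of 33 assembly factors outside the name rule, 0 passed 1.5-fold in either direction in either comparison of siKrt15, with medians of −0.02 and 0.02. The highest against siNeg was Cox20, a factor for COX2, with 1646.3 in siKrt15, 974.7 in siNeg and 1025.6 in mock (brightest probe), at 0.50 and 0.51. Sco1, which carries copper to COX2, was at 0.31 and 0.51. Of 18 measured regulators and genes of mitochondrial DNA upkeep, 1 was lower at 1.5-fold and 0 were higher in both comparisons, with medians of −0.03 and −0.03. It was Ppargc1a, the coactivator PGC-1α, dim at 11.3 in siKrt15, 19.6 in siNeg and 24.1 in mock (−1.06 and −1.28). Among 19 pyruvate and TCA genes, 1 was lower at 1.5-fold, Suclg2 (−0.97 and −0.65), and 0 were higher, with medians of −0.05 and −0.07. Mpc1, part of the pyruvate carrier, was at −0.57 and −0.48, and Idh2 was at 0.37 and 0.39. Of 20 carriers and ATP-handling genes 0 passed in either direction, with medians of −0.07 and −0.05.

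**Figure D4:**
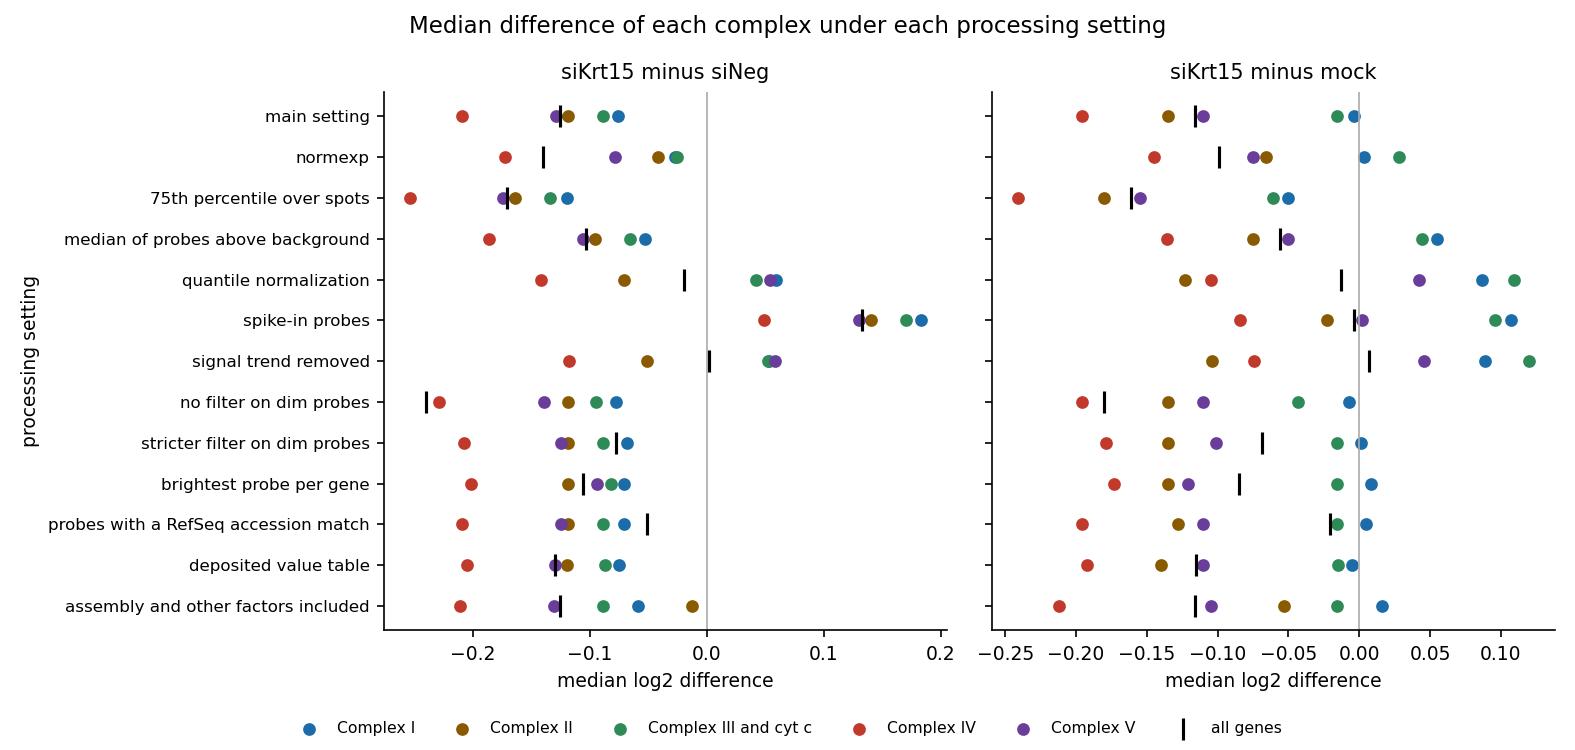
Median log2 difference of each complex (points) and of all genes (black ticks) under each processing setting, for siKrt15 minus siNeg (left) and siKrt15 minus mock (right). Spike-in scaling places all 5 complexes above 0 against siNeg, and complex IV stays to the left of complex I in each setting, by 0.13 to 0.20 against siNeg.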

How the data were processed

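Total RNA of 3 samples was hybridised as Cy3-labelled cRNA to 1-colour Agilent arrays, per the labels' protocols, all on 1 slide. Agilent Feature Extraction 11.5.1.1 is named in the submitters' processing notes. The protocol was GE1_1105_Oct12, per the file headers, with probe coordinates on mm9. The deposited scanner files hold background-subtracted processed signals, an intensity on a linear scale. The authors also deposited a table of log2 values, which set against the scanner files follows log2 processed signal less 1 constant per array (genes not centred), with 92.4% to 94.0% of probes within 0.01. Its medians are −3.72 (siKrt15), −3.51 (siNeg) and −3.52 (mock).

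Of 62976 spots per array, 59305 were not controls. Spots well above background numbered 39883 on siKrt15 (67.3%), 41025 on siNeg (69.2%) and 40901 on mock (69.0%). No spot was saturated (0), and 85 (siKrt15), 68 (siNeg) and 69 (mock) outlier spots were left out. Precision is limited by having 3 arrays. For normalization, the 75th percentile of the array was subtracted from log2 processed signal, and 56598 probes had values on all 3. Spots of a probe, then probes above background on both arrays, were averaged. Python 3.11.15, numpy 2.4.6, pandas 2.3.3, statsmodels 0.14.6, and limma 3.58.1 in R 4.3.3 for normexp (offset 50) were used, and the procedure was tested on simulated data.

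No test was run, since each group has 1 array. A gene was called at a difference of 1.5-fold, or 0.585 on the log2 scale. Of the 154 member probes, 145 were above background on all 3 arrays, 122 matched a RefSeq transcript by accession (GRCm38.p6) and 4 of these matched more than 1 gene. Deposited gene names were kept. A complex I gene counts in the totals but is not reported here on its own. Members and lists were chosen with earlier results of these data known. The rule for genes given in full was: markers and catalytic cores, the 2 highest and 2 lowest genes per complex by siKrt15 minus siNeg, any at 1.5-fold, the paralog groups, and genes with probes over 1 log2 unit apart. Alternatives were other backgrounds, scalings, filters, probe choices and thresholds.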

Additional observations from a re-analysis of the deposited data

How the results depend on the processing

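Cox6a2, Cox7a2l, Cox7b2 and Ndufa4l2 stayed below both controls in all of their 10 or 11 alternatives. Genes outside the name rule were not recomputed. Some members given above, such as Ndufa5, Ndufb11, Uqcrh and Cox7c, were not followed singly in the alternatives. All values rest on 1 array per group, so these alternatives say nothing about differences between cultures. Scaled on spike-in probes, where the all-gene median in siKrt15 minus siNeg was 0.13 against −0.13 in the scaling used, the medians were 0.15 for all subunits, 0.18 for complex I, 0.14 for complex II, 0.17 for complex III with cytochrome c, 0.049 for complex IV and 0.13 for complex V. Quantile normalization and removal of the signal trend also put the medians of complexes I, III and V above 0, while complex IV stayed below 0 there. The median of all subunits ranged from −0.16 to 0.15 against siNeg and from −0.13 to 0.06 against mock. The 3 subunit genes lower at 1.5-fold than siNeg became 1 with normexp, quantile normalization, spike-in scaling or a stricter filter on dim probes, 6 with no such filter, and 0 at 2-fold. The 2 lower than mock became 1 with normexp, quantile normalization or a stricter filter, 5 with no filter, and 0 at 2-fold. With no filter 1 subunit gene was higher in siNeg than in mock, against 0. Cox6a2 ranged from −0.84 to −0.54 against siNeg, Cox7b2 from −1.03 to −0.27 and Ndufa4 from 0.19 to 0.49. No paired analysis was possible because each group has 1 array.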
